A study of Mus musculus with 12 samples.

Results

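The Kcn genes, the mouse genes whose symbols begin with the letters given to potassium channels and their subunits, were followed through a data set of mouse heart RNA. They were chosen by symbol alone, and 97 of the 24062 gene symbols in the counted table met the rule. Of these, 94 were protein-coding genes and 3 were non-coding RNAs. The samples were hearts of 12 mice in 4 groups of 3, one library per mouse. WT and KI/KI mice were 2 months old, and KI/KI mice carried the Lemd2 c.T38>G mutation on both alleles, a knockin made by genome editing in zygotes. The other 6 mice were taken on postnatal day 1 (P1). All of these carried the Lemd2-floxed allele, and the 3 cKO mice also carried a Cre recombinase driven by the Myh6 (alpha-MHC) promoter, which acts in cardiomyocytes, so other heart cells should keep the gene. No group with Cre and without the floxed allele was among the samples. Lemd2 encodes a protein of the inner nuclear membrane, and the study asked how its mutation or loss affects the heart, including its electrical conduction.

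Potassium channels let potassium leave the cardiomyocyte and so end the action potential and hold the resting voltage. The pore is formed by alpha subunits, 4 per channel or, in the Kcnk channels with their tandem pore domains, a pair. Voltage-gated subunits (among them Kcna, Kcnd, Kcnh and Kcnq) carry the transient outward and delayed rectifier currents of repolarization. Inward rectifiers (Kcnj) stabilize the resting potential, answer acetylcholine or sense ATP, Kcnn channels open with calcium, and Kcnk channels carry background leak. Kcne, Kcnip, Kcnab and Kcnmb genes encode auxiliary subunits that change the gating or surface level of a pore but form none. The mouse heart changes its potassium currents after birth, when its action potential shortens.

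The division into pores and auxiliary subunits was looked for in the coding sequence. The selectivity filter of the pore is the short loop that passes potassium and holds back sodium. It was searched for as a signature of 5 codons, read in frame in the longest coding transcript. These were threonine or serine, any residue, glycine, then tyrosine, phenylalanine or leucine, then glycine. The signature was wider than the pattern first set, which had threonine alone at the start and no leucine. Of the 94 protein-coding members, 77 held the signature (81.9%), against 1020 of 19553 other genes of the table (5.22%), where its presence has no such meaning. The 17 without it were all 3 Kcnab, 5 Kcne, 4 Kcnip and 4 Kcnmb genes and Kcnrg. All 14 Kcnk genes held it more than once. Kcna6 and Kcnh2 also matched at 2 places, which does not show a further pore, since a match alone need not be a filter. Their matches at codons 240 (Kcna6) and 601 (Kcnh2) end in glycine, leucine, glycine. Those at codons 422 (Kcna6) and 626 (Kcnh2) have tyrosine and phenylalanine in place of leucine. The coding bases around it are shown for members that the comparisons below turn on, with the 15 bases of the signature in capitals, 5′ to 3′ on the coding strand, from the GENCODE transcripts of GRCm38 (mm10). Each lies inside a single coding exon.
Kcnj5, chr9:32322553-32322579, minus strand, exon 3 of 4: gaaacaACCATTGGGTATGGCttcaga
Kcnj2, chr11:111072201-111072227, plus strand, exon 2 of 2: cagacaACCATTGGCTATGGTttcagg
Kcnj3, chr2:55437621-55437647, plus strand, exon 2 of 4: gaggccACCATCGGCTATGGCtaccgc
Kcnh2, chr5:24325549-24325575, minus strand, exon 7 of 15: ctcaccAGCGTGGGCTTTGGCaatgtc
Kcnn1, chr8:70850651-70850677, minus strand, exon 4 of 9: ttcttgTCCATTGGCTATGGAgacatg
Kcnk3, the downstream pore, chr5:30622196-30622222, plus strand, exon 2 of 2: ctcaccACCATCGGCTTCGGCgactat
The 3 inward rectifiers shown and Kcnn1 encode glycine, tyrosine, glycine at the end of the signature, while Kcnh2 and the downstream pore of Kcnk3 encode glycine, phenylalanine, glycine.

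Library totals ranged from 37063669 to 44789753 counts. Levels are given in CPM, that is counts scaled to a common library size after TMM normalization over all 12 libraries, and 3 counts, taken as the floor, corresponded to 0.0599 to 0.0965 CPM. Floors cover counting error only. The Lemd2 level per mouse was 32, 34.8 and 32.9 CPM (WT), 25.6, 25.2 and 24.8 (KI/KI), 24.3, 25 and 25.4 (floxed) and 6.59, 13.1 and 11.3 (cKO), so that the order of the groups followed the labels. Cardiomyocyte markers were high in every library. One library, cKO replicate 4, lacked the transcripts of Y-linked genes that the other 11 held. Lung epithelium markers summed to 99.3 CPM in WT replicate 3, 34.5 in KI/KI replicate 4, 25.0 and 38.4 in floxed replicates 1 and 2 and 15.8 in cKO replicate 4, and to at most 3.04 in the others.

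Of the 97 members, 1 (Kcnk16) had no count in any library and 20 stayed under 10 counts in every library. A gene was tested where at least 3 libraries of the comparison held 10 or more counts, which admitted 73 members to at least one comparison of 2 groups. Kcn transcripts together made up 2301.8, 2192.8 and 2168.6 CPM in the WT hearts and 2094.9, 1773.3 and 1940.9 in the KI/KI hearts. At P1 the floxed hearts held 1109.1, 1057.0 and 1249.2 CPM of them, and the cKO hearts 801, 871 and 990. Neither pair of groups overlapped in this sum, and both adult groups lay above both P1 groups.

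Per kilobase of exon, the scale on which genes can be set against each other, the adult WT heart was led by Kcnk3, a background leak channel that responds to acid, at 109 ± 7.17 CPM per kilobase (SD, n = 3). Next stood Kcnip2, the auxiliary subunit of the fast transient outward current, at 78.6 ± 4.41, and Kcnj11, the pore of the ATP-sensitive channel, at 64 ± 8.53. Kcng2, a silent voltage-gated subunit that works only together with other pores, was at 53.1 ± 5.96, and Kcnj5 at 44.6 ± 2.65. The ranges of Kcng2 and Kcnj11 overlapped between mice (47.5 to 59.4 and 54.2 to 69.1), as did those of Kcng2 and Kcnj5 by a narrow margin (Kcnj5 42.8 to 47.6). The KI/KI heart had the same 6 leading genes in the same order. By mean, the P1 floxed heart was led by Kcnj5 at 40 ± 4.1 and Kcnh2 at 28.1 ± 0.744, followed by Kcng2, Kcnk3, Kcnj11 and Kcne1, whose means lay between 24 and 24.3 and cannot be ordered. The range of Kcnh2 (27.4 to 28.9) overlapped that of each gene that followed it. Kcne1 reached 36.2 in 1 floxed heart, above the lowest value of Kcnj5 (35.5). In cKO hearts the highest means were those of the auxiliary subunit Kcne1 at 30.5 ± 11.8 and Kcnk3 at 29.1 ± 3.67, which cannot be ordered. Kcng2 at 22.9 ± 4.88 and Kcnj5 at 20 ± 2.75 overlapped as well, and Kcnj5 lay below Kcnk3 in every heart.

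**Figure D1:**
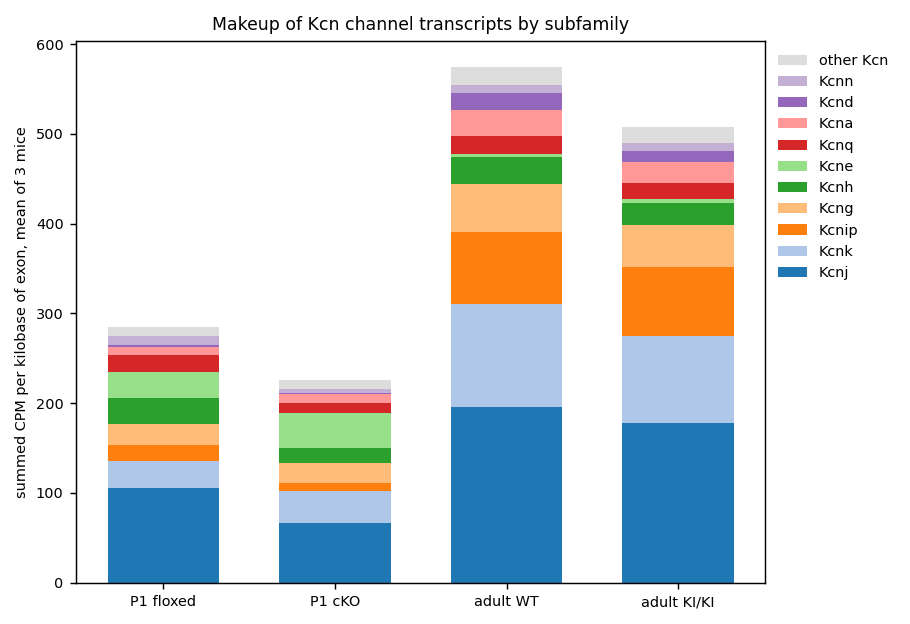
Stacked bars give the summed level of Kcn channel transcripts in CPM per kilobase of exon (vertical axis, mean of 3 mice) in each group, divided by subfamily. The adult bars reach 575 (WT) and 508 (KI/KI) and the P1 bars 285 (floxed) and 226 (cKO), and the Kcne segment is visible mainly at P1.

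By subfamily, the Kcnj inward rectifiers held the largest share of this per-kilobase sum in every group, 34.1% ± 2.14 in WT, 35% ± 0.305 in KI/KI, 37.6% ± 3.97 in floxed and 29.7% ± 3.68 in cKO hearts (SD, n = 3). Kcnip genes held 14% ± 1.02 in WT and 5.95% ± 1.93 in floxed hearts. The Kcne share ran the other way, at 0.674% ± 0.0294 in WT, 9.93% ± 2.81 in floxed and 17% ± 2.7 in cKO hearts. Kcnk genes held 19.8% ± 1.18 in WT, 10.3% ± 1.54 in floxed and 16.1% ± 1.17 in cKO hearts. These shares are a description, since a share must fall where another rises.

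In P1 cKO hearts the change of the Kcn genes leaned downward. Of 68 members tested against floxed hearts, 14 fell (20.6%) and 4 rose (5.88%) at an adjusted p under 0.05. The test was edgeR's quasi-likelihood test on the counts, Benjamini-Hochberg adjusted over all genes tested. Over all 15392 genes tested, 7.23% fell and 9.15% rose. Among the members that fell were Kcnn2, Kcnj5, Kcnn1, Kcnn3, Kcnj2, Kcnd3, Kcnc4, Kcnh2, Kcnc2, Kcnj12, Kcnq1, Kcnk4 and Kcnab1. The log2 fold changes of the 14 ran from -0.60 to -1.71. Those that rose were Kcne4, Kcnj6, Kcnk13 and Kcnk2, from 0.87 to 2.41. The median log2 fold change was -0.23 over the members and -0.00 over all genes. Below 0 were 40 members (58.8%) and 50.4% of all genes. With a fold change above 2 also required, 8 fell (11.8%) and 3 rose (4.41%), against 1.68% and 2.78% of all genes. Groups did not overlap for 19 members lower (27.9%) and 7 higher (10.3%) in cKO, against 19.1% and 19.8% of all genes. The 14 lower members all encode a pore with the selectivity filter signature except Kcnab1, but most members tested hold it. Of 52 tested with the signature 13 fell and 3 rose, and of 15 protein-coding members without it 1 fell and 1 rose.

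The counts depended on single libraries. Without floxed replicate 1, floxed replicate 2 or cKO replicate 5, 2, 5 and 3 members fell and 0, 1 and 0 rose. Without floxed replicate 3, 8 fell and 3 rose, without cKO replicate 4, 13 and 4, and without cKO replicate 6, 16 and 7. Kcnj5 and Kcnn2 were called in all 6 of these fits, and all 18 called members kept their direction in each. The shares of all genes called in these fits are not reported here.

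Cardiomyocyte markers fell in part as well. Of 7, 4 fell, with a median log2 fold change of -0.47, and their sum lay between 38242.8 and 43667.8 CPM in floxed and between 28478.9 and 31485.3 in cKO hearts. In whole-heart RNA, fewer cardiomyocytes and less of a transcript per cardiomyocyte cannot be told apart. Of the other lists, 2 of 5 fibroblast, 2 of 5 smooth muscle and pericyte and 2 of 3 tested macrophage markers rose (medians 0.22, 0.45 and 1.03), as did 1 of 3 cycling cell, 1 of 3 tested skeletal muscle and 1 of 5 endothelial markers (medians 1.14, 1.12 and 0.10). Of the neuron and Schwann cell markers 1 of 5 fell, and of the ventricular markers 1 of 3 (medians -0.70 and -0.26). The part of these marker changes in the Kcn changes was not tested.

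**Figure D2:**
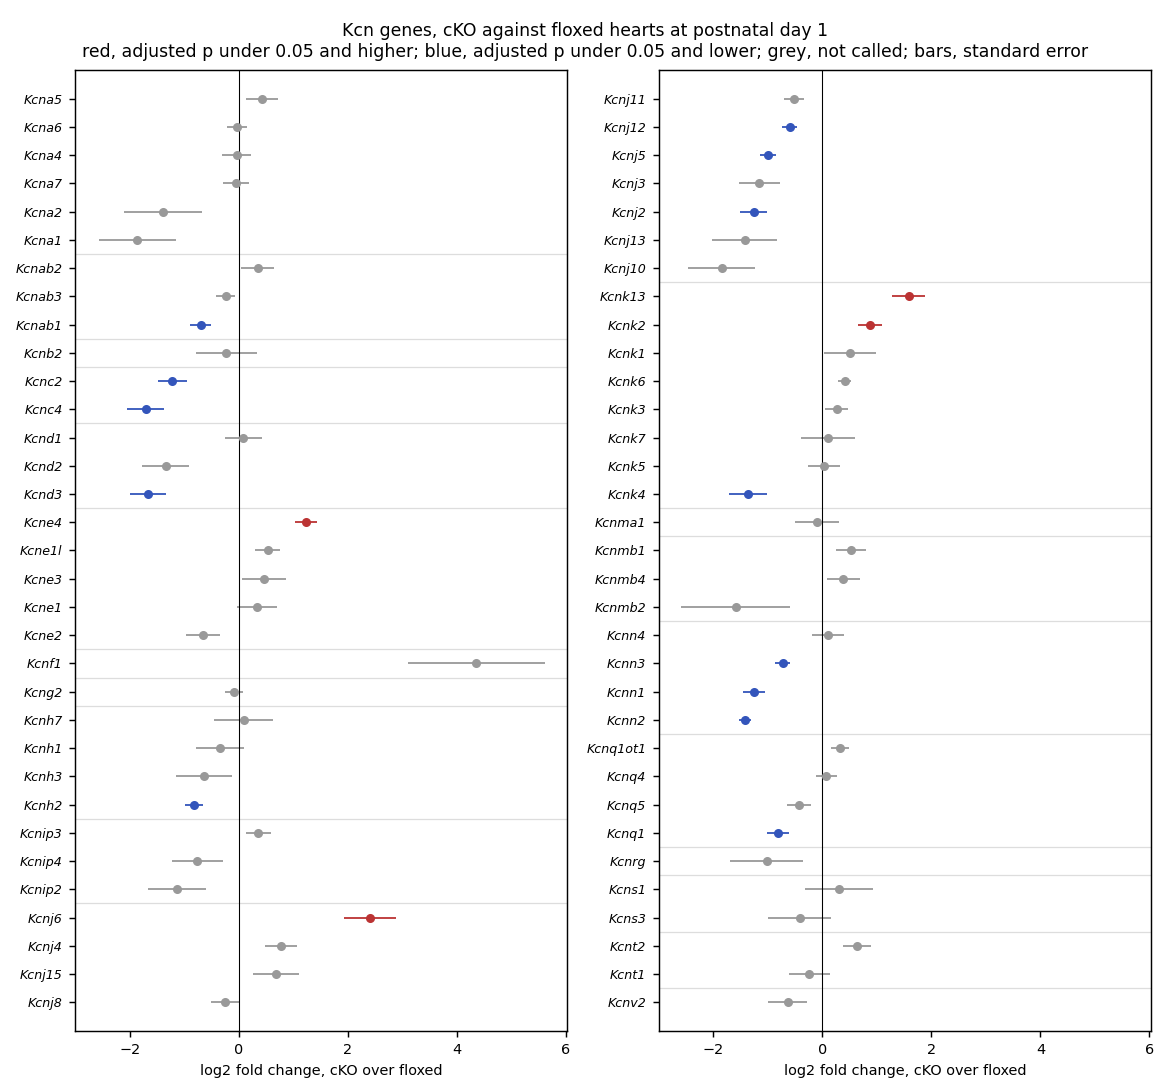
Points give the log2 fold change of cKO over floxed hearts at P1 (horizontal axis) for 66 of the 68 Kcn genes tested, ordered by subfamily, with bars for the standard error. The 13 blue points (fell) lie between -0.60 and -1.71 and the 4 red points (rose) between 0.87 and 2.41, and Kcnf1, at 4.36 with a wide bar, is grey.

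Of the cardiac pair of pores that respond to acetylcholine, 1 fell in cKO hearts. Kcnj5 was at 193, 203 and 166 CPM in floxed and at 107, 92.9 and 81.3 in cKO hearts. The groups were well apart, and Kcnj5 fell by 1.00 on the log2 scale (SE 0.14, adjusted p = 0.009). Its partner Kcnj3 was at 22.7, 30.6 and 22.9 against 17.6, 10.2 and 5.93 CPM, also without overlap, but its log2 fold change of -1.16 (SE 0.38) did not pass (adjusted p = 0.0798). A non-coding gene that the table does not list lies antisense to 31.1% of the exon bases of Kcnj3, and the strand setting of the count was not given in the sources used here.

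Of the classical inward rectifier pores of the resting potential, 2 of 3 tested fell, while Kcnj4 was at 0.77 (SE 0.29) and not called. Kcnj2 was at 74.9, 41.3 and 74.7 CPM in floxed and at 25.0, 22.5 and 32.3 in cKO hearts, a log2 fold change of -1.26 (SE 0.25, adjusted p = 0.0206). Every cKO heart lay below every floxed heart, with floxed replicate 2 nearest to them. Kcnj12 was at 39.1, 43.4 and 36.4 against 24.9, 22.3 and 31.2 CPM and fell by 0.60 (SE 0.14, adjusted p = 0.0307). With a Y-linked covariate neither was called. The ATP-sensitive pores were not called. Kcnj11 was at 69.9, 68.6 and 88.4 against 40.0, 51.4 and 67.4 CPM (-0.52, adjusted p = 0.0966), and Kcnj8, the pore of the vascular form, at 20.6, 19.7 and 19.7 against 12.3, 13.6 and 24.8 CPM, where cKO replicate 6 lay above all floxed hearts.

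**Figure D3:**
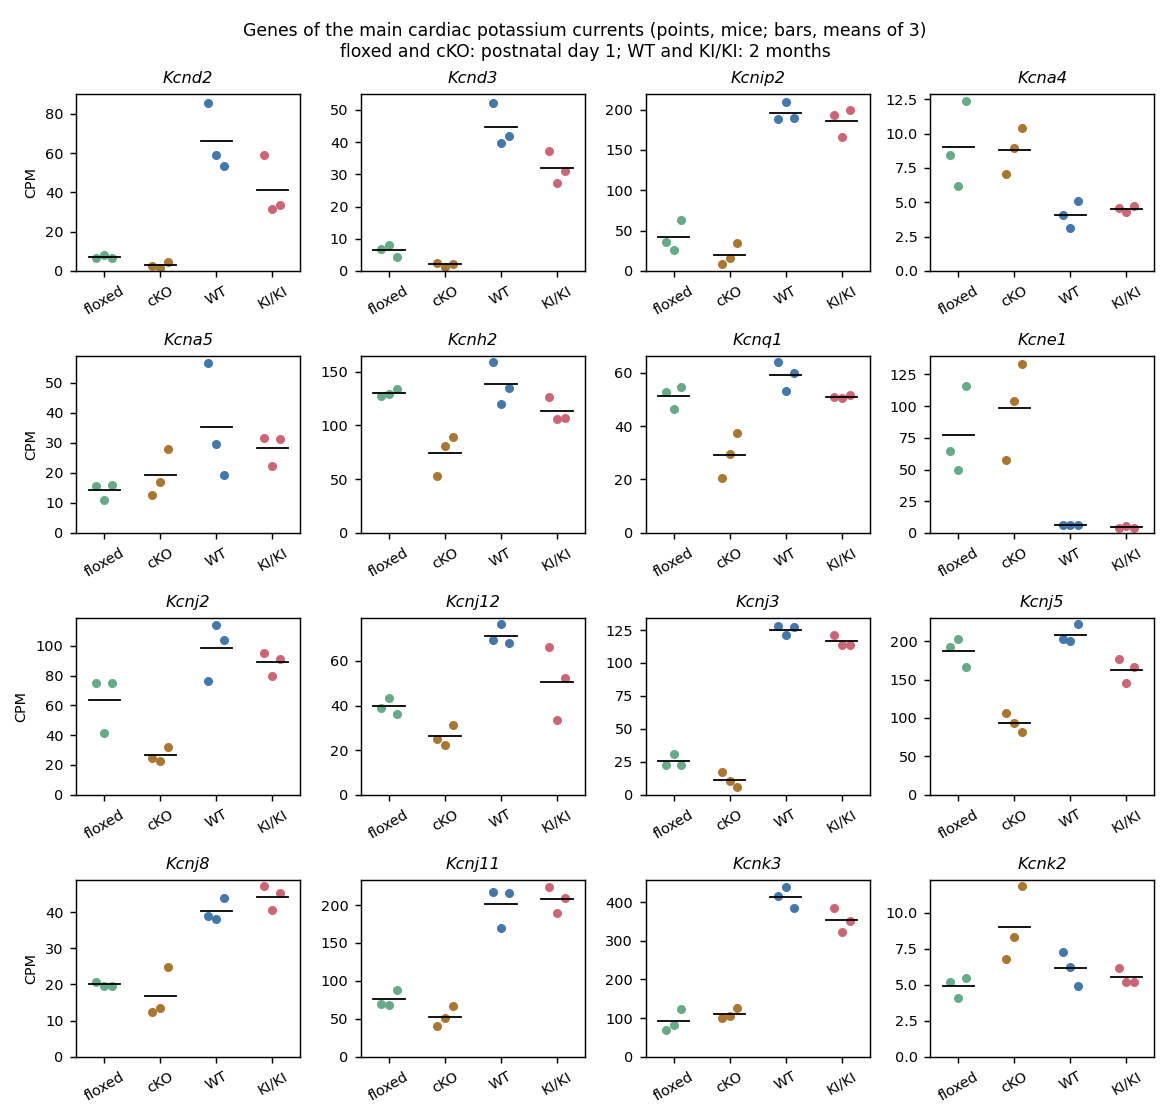
Each panel gives CPM (vertical axis, from 0) for one gene of the main cardiac potassium currents, with one point per mouse and a bar at the mean of 3 in floxed and cKO hearts (P1) and WT and KI/KI hearts (2 months). The cKO points lie below the floxed points for Kcnj5, Kcnj2, Kcnh2, Kcnq1 and Kcnd3, and the adult points lie far above the P1 points for Kcnd2, Kcnd3, Kcnip2, Kcnj3 and Kcnk3 and far below them for Kcne1.

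Of the 5 genes of the transient outward current, 1 fell. Kcnd3, a pore of the fast transient outward current, was at 6.93, 8 and 4.48 CPM in floxed and at 2.59, 1.31 and 2.19 in cKO hearts (log2 fold change -1.67, SE 0.33, adjusted p = 0.0208). Its relative Kcnd2 was at 6.48, 8.13 and 6.44 against 2.42, 1.27 and 4.71 CPM, apart as well, but at -1.34 (SE 0.43) it was not called (adjusted p = 0.075). Their auxiliary subunit Kcnip2 overlapped between the groups, at 36.3, 25.9 and 63.5 against 8.1, 15.5 and 34.1 CPM. The slow transient outward pore Kcna4 was at 8.44, 6.21 and 12.4 against 7.03, 8.94 and 10.4 CPM, with a log2 fold change of -0.04 (SE 0.26).

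Of the 4 genes of the rapid and slow delayed rectifier, 2 fell. Kcnh2, the pore of the rapid component, was at 127, 129 and 134 CPM in floxed and at 53.1, 80.4 and 89.2 in cKO hearts and fell by 0.82 (SE 0.17, adjusted p = 0.0229). Kcnq1, the pore of the slow component, was at 52.7, 46.3 and 54.8 against 20.4, 29.6 and 37.4 CPM and fell by 0.82 (SE 0.20, adjusted p = 0.0345). The ultrarapid pore Kcna5 was at 15.7, 10.9 and 15.8 against 12.7, 17.0 and 27.9 CPM and the groups overlapped (0.43, SE 0.29). The Kcnc pores Kcnc4 and Kcnc2, known mainly from fast-spiking neurons, fell by 1.71 (SE 0.34) and 1.22 (SE 0.27), at floxed means of 0.691 and 4.72 CPM.

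All 3 small-conductance calcium-activated pores fell. Kcnn2 was at 15.2, 15.7 and 13.9 CPM in floxed and at 5.27, 5.44 and 6 in cKO hearts. Its change was the largest beside its standard error among the called members, with the smallest adjusted p of all members (log2 fold change -1.42, SE 0.11, adjusted p = 0.00495). Kcnn1 was at 10.3, 8.91 and 11.2 against 3.07, 4.79 and 4.91 CPM and fell by 1.26 (SE 0.20, adjusted p = 0.0117). Kcnn3 was at 9.27, 8.93 and 9.23 against 6.17, 4.88 and 5.52 CPM and fell by 0.73 (SE 0.14, adjusted p = 0.0192). The intermediate-conductance pore Kcnn4 and the large-conductance pore Kcnma1 were not called.

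The members that rose came from the leak channels, an auxiliary subunit and a pore best known from neurons. Kcnk2, a mechanically gated leak channel, was at 5.17, 4.06 and 5.48 CPM in floxed and at 6.77, 8.33 and 11.9 in cKO hearts (log2 fold change 0.87, SE 0.22, adjusted p = 0.0429). Kcnk13, whose pore is inhibited by halothane, rose by 1.58 (SE 0.31) from 0.306 ± 0.0582 to 0.922 ± 0.149 CPM (SD, n = 3). Of the 8 Kcnk genes tested only Kcnk4 was below 0 and called, at 0.789 ± 0.149 against 0.303 ± 0.0908 CPM (-1.36, SE 0.35), and Kcnk3 was at 69.5, 83.0 and 124 against 100, 106 and 127 CPM (0.26, SE 0.21). Kcne4, an auxiliary subunit that inhibits several voltage-gated pores, was at 4.15, 5.58 and 5.93 against 14.3, 12.4 and 10.1 CPM and rose by 1.24 (SE 0.20, adjusted p = 0.0124). Kcne1, the partner of Kcnq1, was at 64.7, 50 and 116 against 57.6, 104 and 133 CPM, so that no difference beyond the spread between mice could be shown (0.34, SE 0.37). The cytoplasmic beta subunit Kcnab1 fell by 0.70 (SE 0.19, adjusted p = 0.0474).

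Kcnj6, an acetylcholine-gated pore known mainly from the brain, was at 1.47, 1.04 and 3.35 CPM in floxed and at 14.5, 9.06 and 7.32 in cKO hearts (log2 fold change 2.41, SE 0.47, adjusted p = 0.0207). Kcnf1, a silent voltage-gated subunit, had a larger value but no call. It was at 0.406, 0.674 and 0.512 CPM in floxed and at 23.7, 8.15 and 0.34 in cKO hearts, so that cKO replicate 6 lay below every floxed heart (4.36, SE 1.26, adjusted p = 0.0582). The 4 atrial cardiomyocyte markers summed to 9486.3, 6599.2 and 2622.4 CPM in cKO replicates 4, 5 and 6 and to between 1685.6 and 2886.9 in floxed hearts, and 1 of the 4 rose. Of the 68 members tested, 18 (26.5%) ran in the same order over the cKO hearts as the atrial markers, among them Kcnf1, Kcnj6, Kcne4, Kcnj3 and Kcnj5, against 22.7% of all genes. The reverse order held for 21 members (30.9%), among them Kcnq1, Kcnh2, Kcnip2 and Kcnk3, against 32.4% of all genes, so that both shares were near those of all genes. The 3 ventricular markers also ran in the reverse order (5984.7, 7311.9 and 9174.6 CPM). In floxed hearts Kcnj6 was lowest in replicate 2, the heart with the most atrial marker RNA. The part of chamber composition in these values was not tested.

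In adult KI/KI hearts no Kcn gene was called. Of 62 members tested, 0 passed, as did 0 of all 14670 genes (0%). At an unadjusted p under 0.05 there were 13 members, 4 higher (6.45%) and 9 lower (14.5%) in KI/KI, against 8.72% and 7.18% of all genes. With DESeq2, 3 members were called, among them Kcnt2 higher and Kcnj5 lower. The share of all genes called with DESeq2 is not reported here, so that this count is no result about the members as a set. The median log2 fold change was -0.10 over the members and 0.00 over all genes. Below 0 were 37 members (59.7%) and 49.4% of all genes. Groups did not overlap for 11 members lower (17.7%) and 4 higher (6.45%), against 10.4% and 11.4% of all genes.

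The values that stood farthest apart were small. Kcnj5 was at 203, 200 and 223 CPM in WT and at 177, 146 and 166 in KI/KI hearts (log2 fold change -0.35, SE 0.09, adjusted p = 0.219). Kcnd3 was at 52.3, 39.6 and 41.8 against 37.4, 27.4 and 31.1 CPM (-0.48, SE 0.14, adjusted p = 0.244). In both genes each KI/KI heart lay below each WT heart, though for Kcnd3 KI/KI replicate 4 came close to WT replicate 2. Kcna1, a pore of axons and also of muscle, was at 15.4, 15.2 and 21.1 against 12.8, 10.1 and 12.5 CPM (-0.55, SE 0.17, adjusted p = 0.246). Kcne1 was at 5.98, 6.23 and 6.58 against 3.81, 5.59 and 3.79 CPM (-0.50, SE 0.18, adjusted p = 0.277).

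Above WT stood Kcnt2, a sodium-activated pore, at 7.30, 6.93 and 9.11 CPM in WT and 10.7, 15 and 11.2 in KI/KI hearts (0.66, SE 0.18, adjusted p = 0.23), and the beta subunit Kcnab2 at 1.93, 1.77 and 2.58 against 3.22, 4.02 and 2.75 CPM (0.67, SE 0.23, adjusted p = 0.267). Genes near 0 with small errors included Kcnip2 (-0.07, SE 0.08), Kcnj3 (-0.10, SE 0.05) and Kcnj11 (0.05, SE 0.12). Wider values were those of Kcnd2 at 85.8, 59.1 and 53.6 against 59.3, 31.8 and 33.4 CPM (-0.67, SE 0.28) and Kcnj12 at 69.4, 76.5 and 68.1 against 66.1, 33.4 and 52.3 CPM (-0.49, SE 0.22). All 7 cardiomyocyte markers were below 0 in KI/KI, with a median of -0.27 and sums of 76056.3 to 87269.6 CPM in WT and 56362.9 to 76659.8 in KI/KI hearts. Their part in the Kcn values was not tested.

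Set side by side, the models share no library. Of the 14 members that fell in cKO, all were tested in KI/KI and 13 had a log2 fold change below 0 there (92.9%), 5 of them with an unadjusted p under 0.05 (35.7%), the exception being Kcnn3 at 0.59 (SE 0.29). Of all 1092 genes that fell in cKO and were tested in KI/KI, 78.8% were below 0 there and 23.2% also had an unadjusted p under 0.05. Of the 4 that rose in cKO, 3 could be tested in KI/KI, and Kcne4 (0.43, SE 0.18) and Kcnk13 (0.69, SE 0.30) were above 0 there and Kcnk2 (-0.14, SE 0.17) below. The difference between the effects was tested in a fit of all 12 libraries, as the KI/KI effect minus the cKO effect. Of 74 members tested, 1 was called above 0, Kcnn1, and 0 below, against 2.47% of all 15842 genes (1.28% above and 1.19% below). Kcnn1 was at 16.3, 17.3 and 17.8 CPM in WT and at 14.7, 15.4 and 16.2 in KI/KI hearts (-0.15, SE 0.08), and the difference from its cKO effect was 1.10 (SE 0.22, adjusted p = 0.0344). Kcnj2, at -1.26 in cKO and -0.14 (SE 0.15) in KI/KI, did not pass this test (1.11, SE 0.32, adjusted p = 0.0861). The call of Kcnn1 was lost in 8 of the 12 fits that left out a library, namely without any of the WT replicates, KI/KI replicates 4 and 6, floxed replicates 1 and 2 or cKO replicate 5, where the difference stayed between 0.92 and 1.21. At an unadjusted p under 0.05 there were 17 members (23%) with a difference above 0 and 4 (5.41%) below, against 10% and 10.1% of all genes. Age and the kind of allele change together between the models and cannot be told apart.

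**Figure D4:**
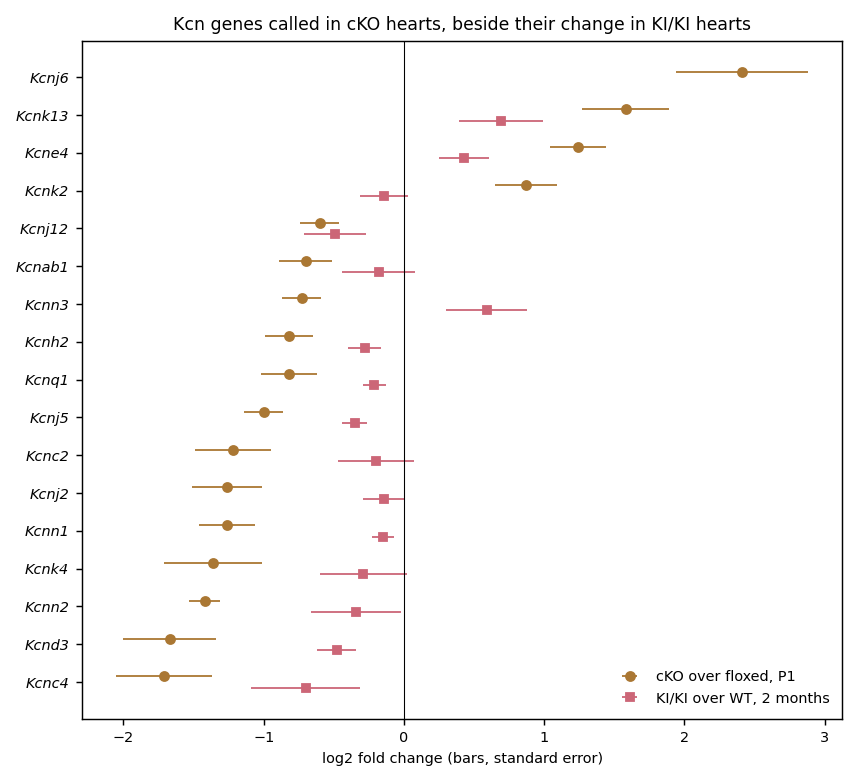
For 17 of the 18 Kcn genes called in cKO hearts, round points give the log2 fold change of cKO over floxed hearts at P1 and square points that of KI/KI over WT hearts at 2 months (horizontal axis, bars for the standard error). For 12 of the 13 genes drawn below 0 in cKO the square also lies below 0, nearer to 0 in each, and no square is drawn for Kcnj6, which was not tested in KI/KI.

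Adult WT and P1 floxed hearts were set against each other to see how the Kcn genes differ between the ages. Of 66 members tested, 24 were higher (36.4%) and 20 lower (30.3%) in the adult at an adjusted p under 0.05. Of all 15267 genes 31.3% were higher and 33.2% lower, so that the share called was near that of all genes. With a fold change above 2 also required, 21 were higher and 16 lower, 31.8% and 24.2% of the members, against 13.3% and 13.9% of all genes. Groups did not overlap for 24 members higher (36.4%) and 22 lower (33.3%), against 34.3% and 36.4% of all genes. Age, the floxed allele and the breeding of the mice change together here and cannot be told apart, and the WT and floxed libraries are also the controls of the comparisons above. Of the 44 called, 7 passed the filter only through the group in which they were high (Kcnd3os, Kcnip1 and Kcnj14 in the adult, Kcne2, Kcnf1, Kcnj6 and Kcnmb4 at P1), so that they had to differ. All 7 cardiomyocyte markers were higher in the adult, with a median of 1.15, and all 3 cycling cell markers lower, with a median of -3.35, and their part in the Kcn values was not tested.

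**Figure D5:**
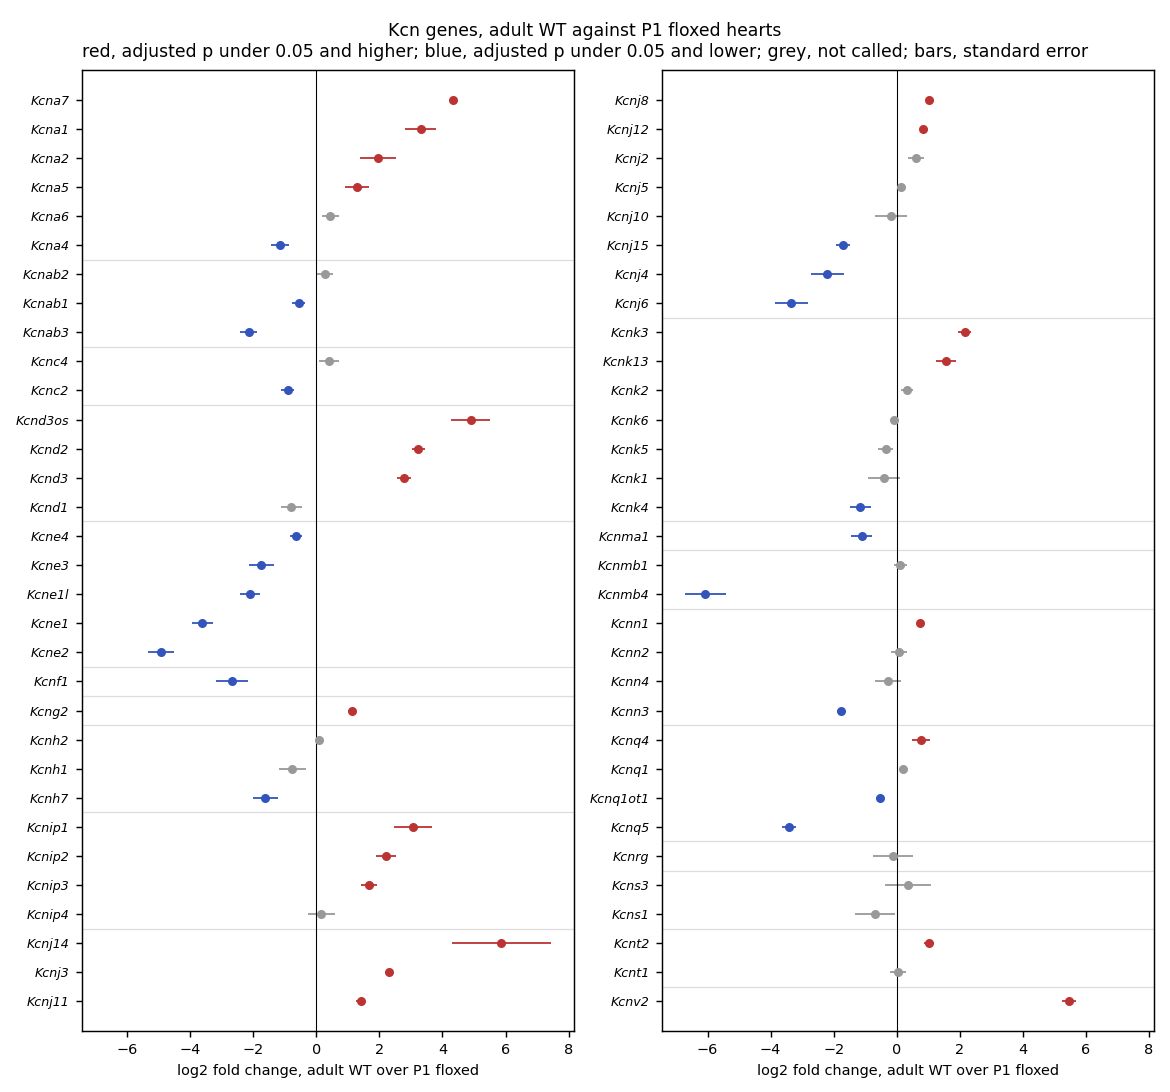
Points give the log2 fold change of adult WT over P1 floxed hearts (horizontal axis) for 64 of the 66 Kcn genes tested, ordered by subfamily, with bars for the standard error. All 5 Kcne points are blue (lower in the adult), from -0.65 for Kcne4 to -4.92 for Kcne2, and the points of Kcnd2, Kcnd3, Kcnip2 and Kcnk3 are red, at 3.23, 2.78, 2.22 and 2.16.

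Of the 5 genes of the transient outward current, 3 were higher in the adult and 1 lower. Kcnd2 was at 6.48, 8.13 and 6.44 CPM in floxed and at 85.8, 59.1 and 53.6 in WT hearts, a log2 fold change of 3.23 (SE 0.20, adjusted p = 7.8e-06). Kcnd3 was higher by 2.78 (SE 0.22) and Kcnip2 by 2.22 (SE 0.32), and Kcnd1, at -0.79 (SE 0.33), was not called. The slow transient outward pore Kcna4 went the other way, at 8.44, 6.21 and 12.4 CPM in floxed and 4.05, 3.11 and 5.06 in WT hearts (-1.15, SE 0.29, adjusted p = 0.00898). The ultrarapid pore Kcna5 was higher by 1.30 (SE 0.38), with WT hearts at 56.5, 29.4 and 19.4 CPM. The silent subunits Kcng2 and Kcnv2 were higher by 1.12 (SE 0.13) and 5.47 (SE 0.22).

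Kcna7, a pore of muscle, went from 0.925, 1.00 and 0.938 CPM in floxed to 20.4, 20.1 and 17.7 in WT hearts, a log2 fold change of 4.33 (SE 0.12, adjusted p = 3.6e-07). In the cKO hearts it was at 0.778, 0.979 and 1.02 CPM, close to floxed (-0.05, SE 0.24). Kcna1 and Kcna2 were higher by 3.31 (SE 0.50) and 1.96 (SE 0.57). Their floxed values, 1.53, 3.04 and 0.618 for Kcna1 and 2.66, 5.13 and 0.96 CPM for Kcna2, ran in the same order as the neuron and Schwann cell markers of these hearts (20.5, 26 and 14.1 CPM), and as the lung epithelium markers (25.0, 38.4 and 0.448 CPM), and both genes were highest among WT hearts in replicate 3, which held the most lung marker RNA. With a lung marker covariate, chosen after seeing the data, both genes were still called, at 3.79 for Kcna1 and 2.60 for Kcna2. The part of the neuron and Schwann cell list was not tested. Without WT replicate 2 or floxed replicate 1, Kcna2 was no longer called, and Kcna5 was not without floxed replicate 2 or 3. Kcnj14 rested on 1 mouse, with WT hearts at 0.772, 18 and 1.17 CPM, was not called without floxed replicate 2 or 3, and did not pass the filter without any 1 of the WT mice.

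Of 11 inward rectifiers tested, 5 were higher and 3 lower in the adult, among them Kcnj14 and Kcnj6, which had to differ. Kcnj3 was at 22.7, 30.6 and 22.9 CPM in floxed and at 128, 121 and 127 in WT hearts (2.30, SE 0.12, adjusted p = 3.1e-06). Its partner Kcnj5 was at 193, 203 and 166 against 203, 200 and 223 CPM and was not called (0.15, SE 0.09, adjusted p = 0.191). The ATP-sensitive pores Kcnj11 and Kcnj8 were higher by 1.41 (SE 0.14) and 1.01 (SE 0.09). Kcnj12 was higher by 0.84 (SE 0.08), and Kcnj2, at 74.9, 41.3 and 74.7 against 76.6, 114 and 104 CPM, was not called (0.62, SE 0.26, adjusted p = 0.0746). Lower in the adult were Kcnj6 (-3.35, SE 0.52), Kcnj4 (-2.20, SE 0.53), another inward rectifier pore, and Kcnj15 (-1.70, SE 0.22).

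Kcnk3 went from 69.5, 83.0 and 124 CPM in floxed to 417, 439 and 385 in WT hearts, 4.46-fold (log2 2.16, SE 0.21, adjusted p = 8.2e-05). Kcnk2 was not called (0.31, SE 0.19). The pores of the rapid and slow delayed rectifier were not called, with Kcnh2 at 127, 129 and 134 CPM in floxed and 159, 120 and 135 in WT hearts (0.08, SE 0.10, adjusted p = 0.536) and Kcnq1 at 0.20 (SE 0.09, adjusted p = 0.0995). The sign of Kcnh2 turned under upper-quartile scaling and without WT replicate 1.

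Their auxiliary subunits were lower. Kcne1 was at 64.7, 50 and 116 CPM in floxed and at 5.98, 6.23 and 6.58 in WT hearts, 12.3-fold lower (log2 -3.62, SE 0.34, adjusted p = 0.00012). The floxed hearts held Kcne2 at 0.948, 1.11 and 0.917 CPM and the WT hearts at no more than 0.0322 CPM, which is under the floor of 3 counts. Kcne3, Kcne4 and Kcne1l had log2 fold changes of -1.75, -0.65 and -2.11, so that all 5 Kcne genes were lower in the adult, of which Kcne2 had to be, since it passed the filter only through the floxed hearts. Kcne4 was no longer called without WT replicate 2 or 3 or without floxed replicate 2 or 3. Of the 4 Kcnip genes, 3 were higher (Kcnip1 at 3.07, which had to differ, Kcnip2 at 2.22 and Kcnip3 at 1.68) and 0 lower, and of the 3 Kcnab genes 2 were lower, Kcnab3 with a log2 fold change of -2.15 (SE 0.26) and Kcnab1 at -0.56 (SE 0.20). Kcnab1 was no longer called without WT replicate 2 or 3 or without floxed replicate 1 or 3, nor with DESeq2. With a Y-linked covariate Kcnab1 was not called either, but in this comparison that covariate separates the groups themselves. Among members with the selectivity filter signature 20 were higher and 11 lower of 49, and among those without it 3 were higher and 8 lower of 15. Over all genes tested, 31.3% were higher and 33.2% lower. Kcnj14, Kcnf1 and Kcnj6 with the signature and Kcnip1, Kcne2 and Kcnmb4 without it are in these counts, although they had to differ.

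Other members lower in the adult were Kcnq5, a pore of the neuronal M-current, at 9.32, 12.5 and 11.2 CPM in floxed and 1.35, 0.794 and 0.979 in WT hearts (-3.41, SE 0.22, adjusted p = 7.8e-06), Kcnn3 (-1.76, SE 0.13) and Kcnf1 (-2.68, SE 0.52). Kcnmb4, an auxiliary subunit of the large-conductance channel, was at 0.79, 0.978 and 0.853 CPM in the P1 floxed group and at 0.0322, 0 and 0 in adult WT, with a single count in all. Its exons overlap antisense transcripts, whose reads a count without strand cannot tell from its own.

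Of the rows whose product is not a channel subunit, the imprinted non-coding RNA Kcnq1ot1, which is transcribed antisense to Kcnq1, was at 48.0, 41.7 and 45.2 CPM in floxed and at 25.4, 35.4 and 32.1 in WT hearts (-0.54, SE 0.13, adjusted p = 0.00621). Neither genotype comparison called it (0.32, SE 0.17 in cKO and -0.18, SE 0.13 in KI/KI). Kcnd3os, antisense to Kcnd3, was at 0.0677, 0.0217 and 0 CPM in the floxed group, at or under the floor, and at 0.997, 0.977 and 0.925 in WT hearts. Kcnd3 and Kcnd3os share 165 exon bases, where a count without strand cannot tell the reads of either from those of the other. Kcnrg, a regulator of voltage-gated channels, overlapped between the groups in all 3 comparisons, and Kcnmb4os1 reached no more than 0.0226 CPM.

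Among 20 genes fixed as partners of these channels or of related currents, 9 were higher and 4 lower of 18 tested in the adult, 0 higher and 1 lower of 18 in cKO and none of 16 in KI/KI, against 31.3% and 33.2% of all genes in the adult and 9.15% and 7.23% in cKO. The partner that fell in cKO was Akap9, the scaffold that ties regulatory enzymes to the Kcnq1 channel, at 115, 110 and 101 CPM in floxed and 83.7, 75.2 and 66.2 in cKO hearts (-0.53, SE 0.12, adjusted p = 0.0292). Abcc9, the sulfonylurea receptor of the cardiac ATP-sensitive channel, was at 585, 498 and 585 against 226, 277 and 460 CPM and was not called (-0.80, SE 0.24, adjusted p = 0.0631). In the adult, the pacemaker channel Hcn2 was at 34.6, 35.7 and 33.1 CPM against 2.78, 1.80 and 4.33 in floxed hearts (3.53, SE 0.28). Lrrc52, an auxiliary subunit of the large-conductance calcium-activated channel, was higher by 2.94 (SE 0.35). Dpp6, an auxiliary subunit of the Kcnd pores, was lower (-2.10, SE 0.41). Dpp6 and Hcn3, both among the 4 lower partners, passed the filter only through the floxed hearts, so that they had to differ. Hcn4, the main pacemaker channel, was at 21.9, 18.5 and 24.9 CPM in WT and at 16.3, 8.54 and 9.61 in KI/KI hearts, without overlap and without a call.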

How the data were processed

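RNA-Seq of 12 hearts was analysed. For the deposited table the authors used Trim Galore on single-end reads, STAR 2.7.2b with mm10 as the genome, and HTSeq to count per gene. The deposited values are raw counts, whole numbers per gene symbol without normalization, and the strand setting of the count is not given in the sources used here.

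Differences were tested with edgeR 4.0.16 (R 4.3.3), in a separate fit of 6 libraries per comparison, with genes with 10 or more counts in at least 3 libraries, TMM normalization and the robust quasi-likelihood test (glmQLFit, glmQLFTest), with Benjamini-Hochberg adjustment over all genes tested and a threshold of 0.05. The difference between the models was a contrast in a fit of all 12 libraries. The standard error of a log2 fold change is its size over the root of F. The labels do not name litters, so that p-values measure the spread between these mice. No pair of replicates agreed within sampling noise (chi-square per degree of freedom 20.2 to 146). Same-numbered libraries of WT and floxed hearts did not deviate together (correlations of -0.534 to -0.235). Pairs of these groups with different numbers ran from -0.295 to 0.436, so that some of them did. Those of KI/KI and cKO hearts were weakly positive (0.0866 to 0.214, against -0.321 to 0.171 for pairs with different numbers).

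The members, gene lists and tests were chosen with earlier results of these data known. Named genes are a list of genes of the cardiac currents, up to 8 further called members per direction with the largest change and no overlap (without calls, up to 5 with the smallest unadjusted p under 0.05 and no overlap), rows that are no channel subunit, leading members per kilobase, and up to 4 called partners per comparison and Hcn4. Others named were chosen after their values were seen. Exon lengths, coordinates and coding bases are from GENCODE M21 (GRCm38), where all 97 members were found. Alternatives were DESeq2 1.42.0, limma-voom (limma 3.58.1), other scalings, filters and dispersions, a fold threshold, covariates, a replicate block, a fit of all libraries and each library left out. The scripts were tested on simulated data. Other experiments of the study were not analysed here, and some results are not reported here.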

Additional observations from a re-analysis of the deposited data

Results flagged for a closer look

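The effect on Kcnn1 differed between the models in a test of the difference itself. Its log2 fold change in KI/KI minus that in cKO was 1.10 (SE 0.22, adjusted p = 0.0344 from edgeR's quasi-likelihood test), with Kcnn1 lower in 3 of 3 cKO hearts than in any floxed heart and, by a narrow margin, in 3 of 3 KI/KI hearts than in any WT heart. Kcnn1 was the 1 member called of 74 tested, against 2.47% of all genes. Age and the kind of allele change together between the models. The call was lost in 8 of 12 fits that left out a library, where the adjusted p reached 0.1, and kept with DESeq2. Groups of 3 are too small for the test for single outlying samples.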

How the results depend on the processing

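Of the Kcn genes, KI/KI against WT, members higher and lower numbered 0 and 0 in every fit that left out 1 library, and 1 and 2 with DESeq2. In cKO against floxed, members lower went from 14 to 8 with a Y-linked covariate and to 8 with the fold threshold, and 10 of the 11 members called in either direction with that covariate were among the 18. Leaving out each library in turn gave 2 to 16 lower and 0 to 7 higher. In adult WT against P1 floxed, members lower went from 20 to 10 with the Y-linked covariate, and leaving out each library gave 14 to 20 lower and 20 to 22 higher, in part because genes high in only 1 group then no longer pass the filter. The mean log2 CPM of Y-linked genes ran from 6.13 to 6.22 in WT and from 6.07 to 6.11 in floxed hearts. In this comparison the covariate thus separated the groups themselves, so that it could not adjust for sex there. For the difference between the models, members above 0 went from 1 to 5 with DESeq2, to 2 with the Y-linked covariate, to 2 with a lung marker covariate chosen after seeing the data and to 0 with a replicate block (Kcnn1 at 1.12, adjusted p = 0.0936), and members below 0 from 0 to 1 with DESeq2, with 0 to 5 above and 0 to 1 below when a library was left out. Without any WT replicate, KI/KI replicate 6, floxed replicate 1 or cKO replicate 5 the count above 0 was 0, without cKO replicate 4 it was 3, without floxed replicate 3 it was 4 and without cKO replicate 6 it was 5. The causes of these changes were not tested. The replicate block moved no count of members in adult WT against P1 floxed by over 1.5 times. DESeq2 called 25 members in cKO, among them all 18. Shares over all genes are reported for the main fits only, so that counts under other settings show only how the calls of members depend on the setting. Signs that turned belonged to values near 0. They were Kcnh2, adult WT against P1 floxed, at -0.00 under upper-quartile scaling and -0.02 to 0.18 over the fits with a library left out (negative without WT replicate 1), and Kcna4, cKO against floxed, at 0.10 with the Y-linked covariate and -0.25 to 0.24 over those fits (positive without floxed replicate 3 and, at 0.08, without cKO replicate 4). In KI/KI against WT they were Kcna4 at -0.01 to 0.35 (negative without WT replicate 2), Kcna5 at -0.59 to 0.22 (positive without WT replicate 1) and Kcnj11 at -0.06 to 0.11 (negative without WT replicate 2 and, at -0.01, without KI/KI replicate 4). In the difference between the models they were Kcna4 at -0.11 to 0.39 (negative without floxed replicate 3) and Kcnj12 at -0.14 to 0.33 (negative without KI/KI replicate 4). Other scalings moved the median of all genes by at most 0.077. A median standard error of 0.298 in cKO and 0.269 in KI/KI over the members limits which differences could be called.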
